A study of Ginkgo biloba with 15 samples.

Results

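Embryos of Ginkgo biloba collected in November 2015 and in February 2016 were compared across their messenger RNA, gene by gene. The genes described were those with at least 1 FPKM (counted fragments scaled by gene length and library depth) in at least 2 of the 6 mRNA libraries of the study, and 22947 of 43690 listed gene models met that rule. The rule uses levels in all 3 months and not the difference between November and February, and the other models were too low to be tested.

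Ginkgo is a gymnosperm tree whose seeds are shed in autumn with a small embryo inside a large nutritive tissue. The embryo goes on growing inside the shed seed, and winter cold is known to help ginkgo seeds reach the state in which they can germinate. The step from November to February therefore covers the late, cold part of seed development.

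The embryos came from healthy trees on a university campus in Yangzhou, China, with no treatment given in the labels, and were grouped by collection month. Each of the 2 months had 2 mRNA libraries, numbered 1 and 2 in their labels, and 2 September libraries of 2015 entered the same fit to help estimate the spread. The labels do not tell whether the libraries of a month were made from separate trees or seeds, so p-values measure only the spread between these libraries, and that spread may be technical. The deposited table gives no embryo-specific marker by name, so the labelled organ was not checked against markers.

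The November libraries held 16405390 and 19641543 reads recovered from the FPKM values, and the February libraries 16095615 and 16556677. At least 1 FPKM was reached by 21148 and 20718 genes in November and by 20260 and 20328 in February. The February libraries were closer to each other than the November libraries were. A difference of at least 4-fold on the log2(FPKM + 1) scale separated 61 genes in the February pair and 422 in the November pair. November 2 was nearer to both February libraries (Pearson's r across genes of 0.857 and 0.89) than November 1 was (0.83 and 0.858), and November 1 was nearer to both September libraries. These correlations describe the libraries, and genes are not independent replicates.

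The transcriptome changed broadly over winter. By limma, 4270 genes rose (18.6% of those tested) and 5192 fell (22.6%), so that 41.2% passed the threshold of an adjusted p of 0.05. Most changes were moderate in size. Of the genes that rose, 1526 changed by less than 1 on the log2 scale, 2190 by 1 to 2, 382 by 2 to 3, 158 by 3 to 5 and 14 by 5 or more. Of the genes that fell, the same sizes held 2029, 2508, 482, 164 and 9 genes. At least 4-fold rises made up 2.41% of tested genes and at least 4-fold falls 2.85%. The middle 90% of all log2 fold changes lay between −1.7 and 1.56. In these bulk embryos, fewer cells of a type and less RNA per cell cannot be told apart.

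The larger number of falls held with the FPKM values as deposited and with upper quartile factors (4109 rises and 5466 falls), and turned around with RLE factors (relative log expression, 4979 rises and 4545 falls). None of the 9462 called genes was called in the opposite direction under any of the 15 alternatives run. The alternatives reuse the same libraries and the scaling factors were small, so such reversals were unlikely and their absence supports nothing. With RLE factors 93.2% of the reported calls were kept, and with upper quartile factors 98.3%. With the 4 November and February libraries alone 76% were kept, so part of the count leaned on the September libraries. The September pair, which entered the estimate of the spread, had 82 genes at least 4-fold apart, against 422 in the November pair. Leaving out February 1 reduced the count most, to 3995 calls, and 41.7% of the reported calls were kept.

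**Figure D1:**
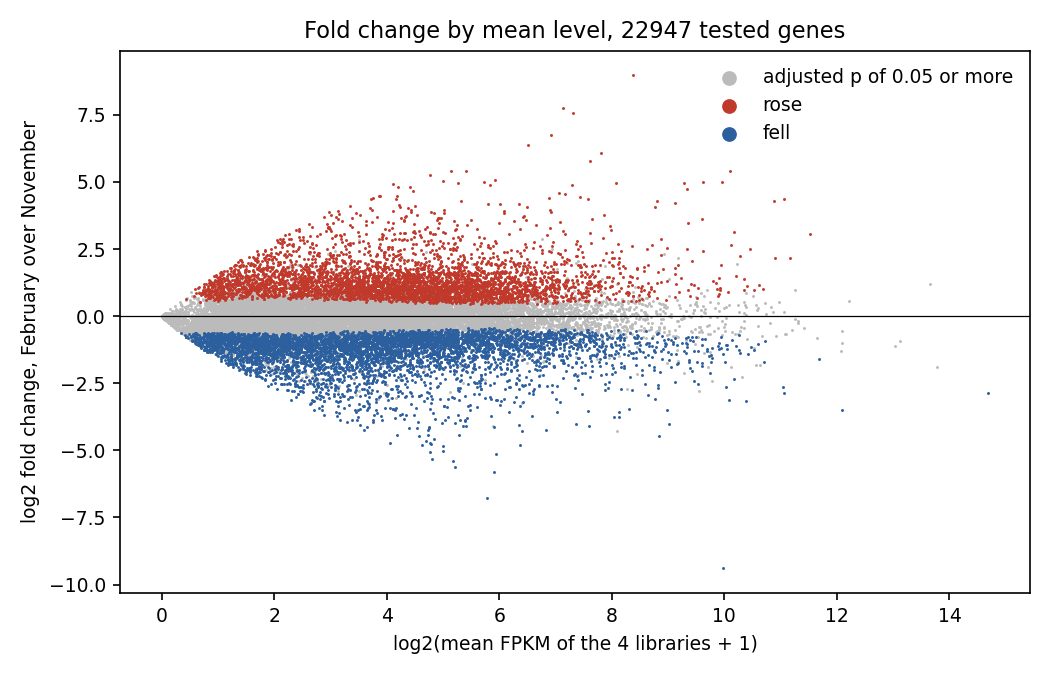
Log2 fold change from November to February (y axis) against the log2 of the mean FPKM of the 4 libraries plus 1 (x axis), 1 point per tested gene. Red points are genes that rose (4270), blue points genes that fell (5192), and grey points did not pass the limma threshold; the slanting edges at the left come from the added 1 FPKM, which limits the fold change of low genes.

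Genes of middle abundance were the ones that rose most often, and low genes mostly fell when they were called. Low genes could pass the 1 FPKM rule through any 2 of the 6 libraries, those of September among them. Whether the rule shaped their balance of rises and falls was not tested. Among the 4009 genes with a mean below 2 FPKM over the 4 libraries, 394 rose and 737 fell, and 28.2% were called. Among the 3843 genes with 2 to 5 FPKM, 533 rose and 846 fell. The 7260 genes with 5 to 20 FPKM held 1321 rises and 1643 falls. The 6013 genes with 20 to 100 FPKM held more rises (1598) than falls (1446), and 50.6% of them were called against 41.2% of all tested genes. That excess of rises was 1526 to 1515 with upper quartile factors and 1847 to 1209 with RLE factors.

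Genes of 100 to 1000 FPKM held 406 rises (23.6%) and 494 falls (28.8%) among 1718. Rises made up 45.1% of the calls in this class, the same share as over all tested genes (45.1%). The 104 genes with a mean of 1000 FPKM or more held 18 rises and 26 falls. Their median log2 fold change was −0.41, against −0.1 over all tested genes. With RLE factors the classes of 5 to 20 FPKM (1614 rises, 1466 falls), 100 to 1000 FPKM (440 and 400) and 1000 FPKM or more (18 and 17) held more rises than falls. Below 5 FPKM the excess of falls held under both scalings, RLE factors giving 442 rises and 678 falls under 2 FPKM and 618 and 775 at 2 to 5 FPKM.

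**Figure D2:**
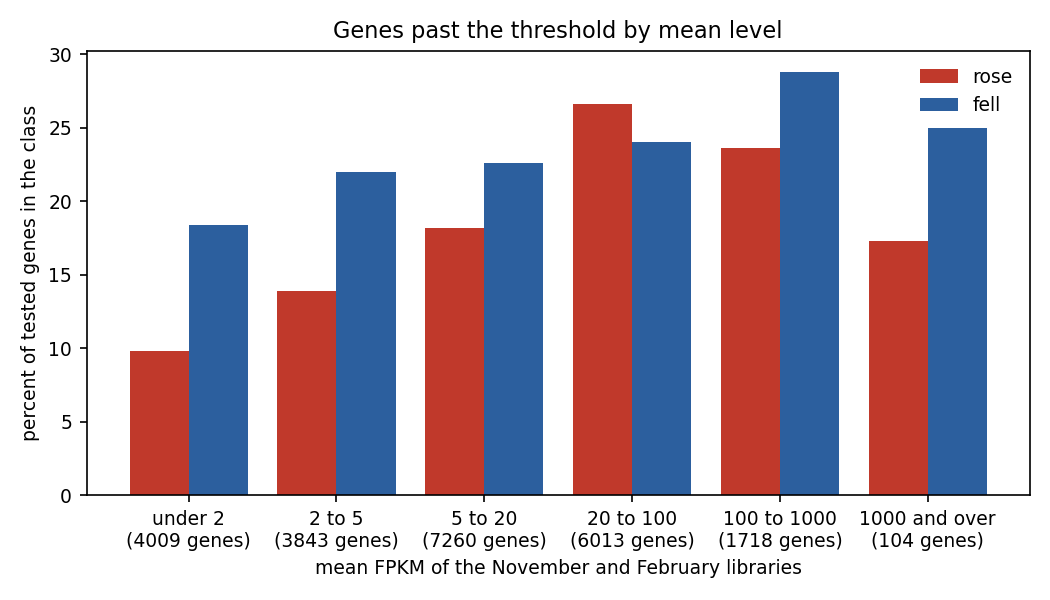
Percent of tested genes (y axis) that rose (red bars) or fell (blue bars) from November to February by class of mean FPKM (x axis, genes per class in parentheses). Falls exceed rises in every class except 20 to 100 FPKM, where 26.6% rose and 24% fell.

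The first 10 genes held a smaller share of the summed FPKM in February than in November. The 10 most abundant genes of each library took 12.6% and 11.2% of the summed FPKM in November 1 and 2, and 5.61% and 8.32% in February 1 and 2. The months did not overlap, and the September libraries stood at 6.52% and 5.75%. Much of the November share lay in its most abundant gene, on scaffold 5718, with a listed length of 195 bases. That gene held 43026.51 and 47147.32 of 1038591 and 1110458 summed FPKM in November. In February it held 3077.44 and 12734.81 of 918914 and 1012634. With this gene taken off the share of the first 10 and the totals unchanged, November 2 stood slightly below February 2. The separation of the months by FPKM thus rested on this gene. Shares with the gene left out of the totals were not computed. Counted as reads, the 10 genes took 6.21% and 6.03% in November and 3.36% and 4.49% in February. The 1000 most abundant genes took 56.7% and 59.7% of the summed FPKM in November and 51.3% and 55.7% in February. By reads the 1000 genes took 47.5% and 50.2% in November and 46.5% and 47.9% in February, and there the months overlapped. With 2 libraries against 2, a two-sided exact permutation test cannot go below p = 0.33, so these shares were not tested.

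The months shared 5 of their 10 most abundant genes by mean FPKM, 44 of the first 100 and 671 of the first 1000. Of the 100 most abundant November genes 43 fell and 0 rose, and of the 100 most abundant February genes 40 rose and 4 fell. These lists were chosen by the levels compared, so the directions follow in part from the choice and support nothing. Between the lists, 329 of the first 1000 November genes were past rank 1000 in February.

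The most abundant November gene lay on scaffold 5718 (plus strand, 2801592 to 2802124). Its levels were 43026.51 and 47147.32 FPKM in November against 3077.44 and 12734.81 in February, so that the months did not overlap while the February libraries differed by more than 4-fold. In limma its log2 fold change was −2.85, with an SE of 0.9 and an adjusted p of 0.044, and it was still second in February. The call was lost under 4 of 9 alternatives (adjusted p up to 0.13) and in 5 of the 6 fits that left out a library (up to 0.22). It had stood at 1482.72 and 315.79 FPKM in September.

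The second November gene, on scaffold 9952 (minus strand, 171074 to 171784), did not pass the test. Its values were 29254.56 and 12269.64 FPKM in November and 2030.94 and 12543.17 FPKM in February, and the months overlapped (log2 fold change −1.91, SE 0.87, limma adjusted p = 0.12). Without February 2 its adjusted p was 0.023. The third gene, on scaffold 2408 (plus strand, 6134 to 6609), held 10105.95 and 13223.13 FPKM in November and 5296.02 and 7161.02 FPKM in February (−0.91, SE 0.43, adjusted p = 0.14). The fourth, on scaffold 1909 (minus strand, 1900883 to 1902638), held 9236.3 and 13143.02 and then 3283.08 and 7901.23 FPKM (−1.11, SE 0.49, adjusted p = 0.11). Neither of these passed the test, although their months did not overlap. The gene on scaffold 2408 passed with no mean-variance trend (adjusted p = 0.035) and with voom (0.027), and the gene on scaffold 1909 without February 2 (0.028). The fifth, on scaffold 1107 (minus strand, 188510 to 188962), stood at 13107.61 and 3118.58 FPKM in November against 328.24 and 952.3 in February. It fell by 3.51 (SE 0.76, adjusted p = 0.013), from rank 5 to rank 180, and the call was lost without February 1 (adjusted p = 0.089).

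The most abundant February gene lay on scaffold 1478 (minus strand, 796679 to 796993). Its level was 5906.69 and 10160.19 FPKM in November, when it ranked sixth, against 15248.56 and 20433.9 in February. The months did not overlap, and its log2 fold change of 1.19 (SE 0.44) did not pass the test (limma adjusted p = 0.073), though it passed under 2 of 9 alternatives (lowest adjusted p 0.035) and without November 2 (0.036). In September the same gene stood at 652.47 and 385.86 FPKM.

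Of the 5 genes that were in the first 10 in February and not in November, 4 rose past the threshold. One, on scaffold 2003 (minus strand, 819416 to 819946), went from 163.78 and 200.82 FPKM in November to 3409.71 and 3786.66 FPKM in February, and from rank 928 to rank 10. In limma its log2 fold change was 4.3, with an SE of 0.29 and an adjusted p of 0.00081. Another, on scaffold 424 (plus strand, 383479 to 386097), went from 95.74 and 393.37 to 4207.03 and 3891.8 FPKM, from rank 672 to rank 8 (4.37, SE 0.6, adjusted p = 0.0033). In September it had stood at 1.69 and 3.05 FPKM.

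On the minus strand of scaffold 6444, the model at 535276 to 536486 went from 369.77 and 1054.44 to 5824.88 and 4577.92 FPKM, from rank 192 to rank 7 (3.05, SE 0.47, limma adjusted p = 0.0047). On the plus strand of scaffold 1842, the model at 360950 to 361522 went from 456.58 and 1413.4 to 3056.47 and 4308.56 FPKM, from rank 132 to rank 9 (2.17, SE 0.51, adjusted p = 0.017). The call of the model on scaffold 1842 was lost without February 1 (adjusted p = 0.073), without February 2 (0.096) and with the 4 libraries alone (0.056). In all 4 genes each February library was above both November libraries. These entrants were picked for their February rank after the values were seen.

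**Figure D3:**
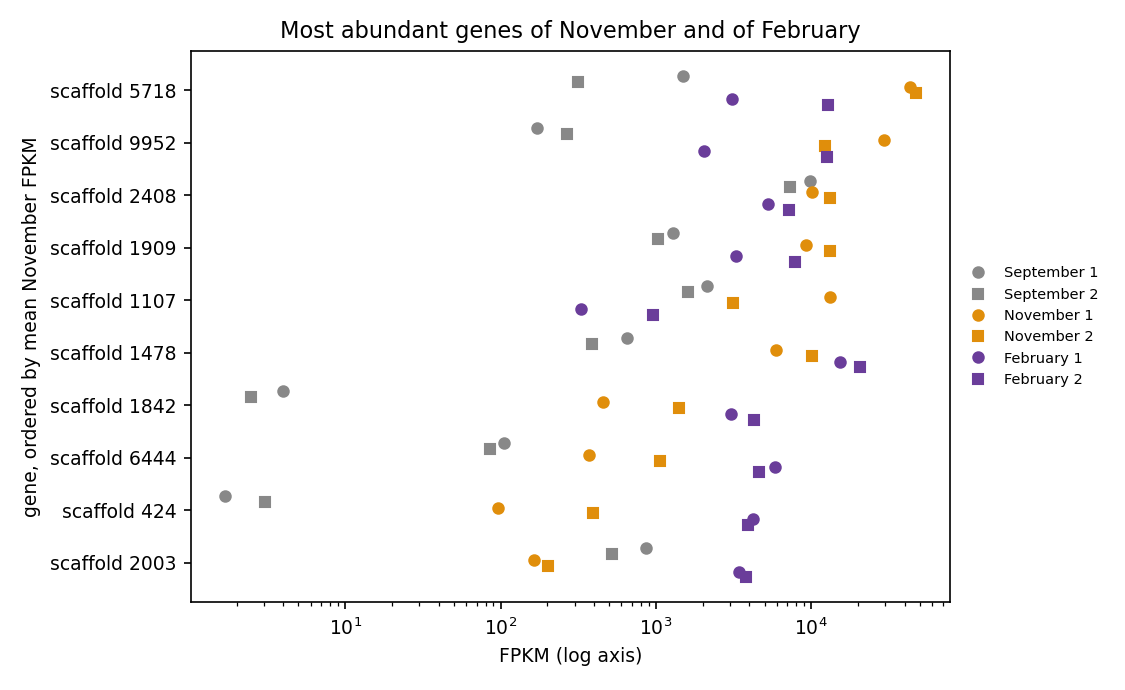
FPKM in each library (x axis, log scale) of the 6 genes that were among the first 5 of November or of February and of the 4 others described as entering the first 10 of February (y axis, by scaffold, in order of mean November FPKM). Orange marks November, purple February and grey September; circles are library 1 and squares library 2. The lowest 4 genes are to the right in February, the gene on scaffold 9952 has overlapping months, and the gene on scaffold 5718 has the highest November values.

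The largest single rises began from November levels below 1 FPKM. Novel01102, a model that the authors added (scaffold 4, minus strand, 329169 to 331181), was listed at 0.4 and 0.06 FPKM in November against 400.92 and 923.64 in February. In September it had been about as high as in February, at 366.45 and 940.96 FPKM. The next was Gb_03062, on scaffold 11487 (plus strand, 438665 to 439377), at 0.26 and 0.21 FPKM in November against 200.59 and 359 in February, with limma giving 7.77 on the log2 scale (SE 0.34, adjusted p = 0.00043). Unlike Novel01102, it was below 1 FPKM in September too, at 0.19 and 0.81 FPKM.

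Gb_03062 did not rise alone on its scaffold. The model before it on the same strand (405926 to 406637) stood at 0.43 and 0.86 FPKM in November against 236.73 and 393.35 in February, with limma giving 7.55 on the log2 scale (SE 0.31, adjusted p = 0.00043). The model after it, also on the plus strand (453555 to 466184), went from 0.44 and 0.74 to 51.59 and 84.91 FPKM (5.41, SE 0.33, adjusted p = 0.00076). All 3 held under the 9 alternatives and with any library left out. The 3 models met the rule of 1 FPKM in 2 libraries only through February, so that their direction follows in part from the rule. Their listed lengths were 712, 713 and 690 bases. Near-identical copies can share reads, and whether these models are copies was not tested because no sequence was used here.

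The largest fall was that of Gb_19513 on scaffold 3017, from 3252.73 and 792.32 FPKM in November to 1.8 and 1.05 FPKM in February. The next largest that kept the rule on levels was Gb_19511, on the same scaffold and strand (253147 to 253635). Its levels were 114.08 and 103.22 FPKM in November and 0 in both February libraries. A count of 0 allows up to 3 reads, 0.509 FPKM in February 1 and 0.495 in February 2, so against the mean of these limits the gene was at least 216-fold lower in February, counting error only. In limma its log2 fold change was −6.77, with an SE of 0.25 and an adjusted p of 0.00043. A model between them (284377 to 284865) has the same listed length of 366 bases as Gb_19511 and held 0.83 FPKM in both November libraries and 0 in both February libraries. That difference did not pass the test (adjusted p = 0.071). It passed with a pseudocount of 0.1 (0.0044), with the 4 libraries alone (0.02) and without September 1 (0.029) or September 2 (0.026).

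The adjacent pair on 1 strand with the largest falls, picked after the values were seen, lay on the minus strand of scaffold 5172. The model at 66633 to 67250 held 91.73 and 13.68 FPKM in November and 0.1 in both February libraries. The model at 129838 to 184600 held 125.67 and 14.19 FPKM in November and 0 and 0.1 in February. Limma gave log2 fold changes of −5.07 (SE 0.76, adjusted p = 0.0042) and −5.39 (SE 0.86, adjusted p = 0.0051). Their listed lengths, 618 and 617 bases, differ by 1 base. Both calls were lost with limma's voom weights on recovered reads (adjusted p = 0.076 and 0.1).

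Among genes with a mean of at least 100 FPKM, another large fall was that of a model on scaffold 338 (plus strand, 1421768 to 1422241). Its levels were 952.4 and 789.04 FPKM in November against 39.45 and 37.97 in February, with limma giving −4.45 on the log2 scale (SE 0.2, adjusted p = 0.00043). It had stood at 6107.08 and 6712.52 FPKM in September. An added model on scaffold 2459 (plus strand, 557723 to 559323) fell from 184.5 and 224.79 to 2.06 and 37.98 FPKM (−4.23, SE 1.03, adjusted p = 0.019). Its February libraries differed from each other by more than 10 times.

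Few of the 43690 listed models met a strict rule of levels for a switch between the months. A level of at least 5 FPKM in both February libraries and at most 0.1 in both November libraries was met by 11 genes, on 11 scaffolds, with means of 6.29 to 14 FPKM in February. Of these, 7 were also at or below 0.1 FPKM in both September libraries. The reverse was met by 6 genes with November means of 7.79 to 109 FPKM, and 4 of them had been at 5 FPKM or more in both September libraries. These lists were set by the levels compared and are a description. With up to 0.5 FPKM allowed in the low month they held 39 and 36 genes, and with at least 10 FPKM in the high month 1 and 4.

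Well-expressed long genes rose far more often than they fell. Listed length is the length used for FPKM. It is a multiple of 3 for 85.8% of Gb_ models, so most of these lengths are coding lengths. Among genes with a mean of 5 FPKM or more, 138 of the 397 genes of 4000 bases or more rose (34.8%) and 22 fell (5.5%). At that level 22.2% of Gb_ models of any length rose and 23.8% fell, and of added models 21.8% and 26.9%. Over all tested genes the shares were 18.6% and 22.6%. The median log2 fold change of the 397 genes was 0.61. The 2532 genes of 2000 to 4000 bases held 725 rises and 408 falls, with a median of 0.22. The 4252 genes of 500 to 1000 bases held 779 rises and 1203 falls, with a median of −0.14.

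The libraries of a month were not alike in this respect. The median level of the longest class was 12.9 FPKM in November 1, 8.3 in November 2, 19.6 in February 1 and 13.7 in February 2. The months did not overlap, but November 1 and February 2 stood closer to each other than either did to its partner. The share of reads on models of 4000 bases or more moved the same way, at 4.3% and 2.96% in November and 5.95% and 4.34% in February. With February 1 left out, 7.8% of the longest class rose and 2% fell. Without November 2 the values were 19.4% and 8.6%, and 22.9% rose without either September library. RLE factors gave 43.3% and 4.8%, and upper quartile factors 34.3% and 6%. What differed between libraries in their coverage of long genes was not tested.

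Low genes of 2000 to 4000 bases fell more often than they rose, with 503 falls and 167 rises among 1854, while the 176 low genes of 4000 bases or more held 17 falls and 19 rises (18 and 14 with a pseudocount of 0.1). The falls were most frequent in models without introns. Among genes with a mean below 5 FPKM, a listed length of 2000 to 4000 bases and a span equal to that length, 309 of 816 fell (37.9%) and 32 rose (3.9%). Of all Gb_ models below 5 FPKM 20.5% fell and 11.6% rose, and of added models 17.1% and 13.7%. The median level of the 816 models was 2.68 and 2.29 FPKM in November and 1.55 and 1.36 FPKM in February, so that the months did not overlap. In September it had been 2.76 and 3.38 FPKM. The summed FPKM of the class was 2331 and 2076 in November and 1533 and 1322 in February. These 816 models lay on 604 scaffolds, and 33 were added models.

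Models of the same length and level with introns showed less of this. Of those 1038, 194 fell (18.7%) and 135 rose (13%), with a median log2 fold change of −0.2 against −0.54 for the class without introns. The class median was 2.46 and 1.81 FPKM in November and 1.79 and 1.71 FPKM in February. The fall of the intronless class was in the same direction with RLE factors (34.2% fell, 4.4% rose), upper quartile factors (40.4% and 3.9%) and voom (46.5% and 4.4%). With February 1 left out 8.1% fell and 1.8% rose, with February 2 left out 11.4% and 3.2%, and without November 1 21.3% and 3.7%. At 5 FPKM or more, the 277 intronless models of this length held 68 rises and 66 falls, with a median log2 fold change of −0.02. Low models could pass the 1 FPKM rule through the September libraries, and whether that favoured falls was not tested. The split by intron, length and level was made after the values were seen, so its counts are a description. What these models encode is not given in the table, and whether reads were split among similar models was not tested.

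**Figure D4:**
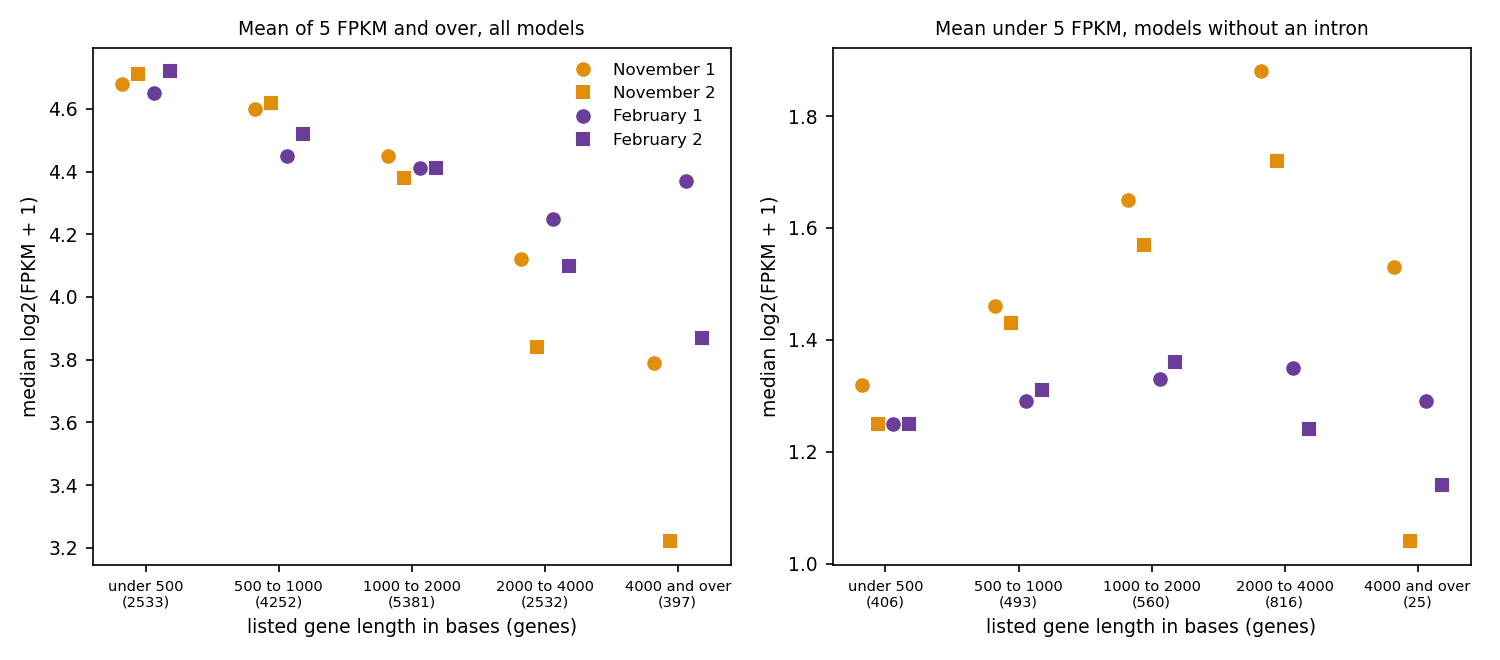
Median log2(FPKM + 1) per library (y axis) by class of listed length (x axis, number of genes in parentheses), for genes with a mean of 5 FPKM or more (left) and for models without an intron under 5 FPKM (right). Orange marks November and purple February, with circles for library 1 and squares for library 2; axes do not start at 0. At the left the longest class is higher in February but November 1 (3.79) lies near February 2 (3.87), and at the right the class of 2000 to 4000 bases is at 1.88 and 1.72 in November and at 1.35 and 1.24 in February.

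Ginkgo genes are known for very long introns, and 3420 tested genes spanned 100 kb or more. Of these 693 rose and 632 fell, so that 38.7% were called against 41.2% of all tested genes. Of the 3366 genes with at least 100 kb of intron 682 rose and 625 fell, and upper quartile factors turned this to 647 and 672. The 4204 genes with a span under 1 kb held 749 rises (17.8%) and 993 falls (23.6%), near the 18.6% and 22.6% of all tested genes. The 4542 models without an intron held 710 rises (15.6%) and 1254 falls (27.6%), and 619 of those falls were in genes below 5 FPKM.

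Size of change did fall with span. Among the 3420 genes spanning 100 kb or more, 23 rose and 23 fell at least 4-fold, and their median absolute log2 fold change was 0.51. Among the 4204 genes spanning under 1 kb, 204 rose and 241 fell at least 4-fold, and the median absolute change was 0.72. Over all 22947 tested genes 554 rose and 655 fell at least 4-fold (2.41% and 2.85%), with a median absolute change of 0.62. The spread between libraries of a month was also larger in the short class. The median absolute log2 difference was 0.38 in the November pair and 0.32 in the February pair for spans under 1 kb, and 0.26 and 0.21 for spans of 100 kb or more.

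The called gene with the longest span that rose lay on scaffold 5711 (minus strand, 1532290 to 2180084). Its listed length was 3246 bases in a span of 647795. It went from 15 and 16.08 FPKM in November to 56.9 and 42.07 FPKM in February, with limma giving 1.59 on the log2 scale (SE 0.2, adjusted p = 0.0027). In the other direction, a gene spanning 531566 bases on scaffold 2410 (plus strand, 596051 to 1127616) went from 56.33 and 61.07 to 35.3 and 37.49 FPKM. It fell by 0.67 (SE 0.18, adjusted p = 0.028), and its span overlaps another listed model. That call was lost with RLE factors (adjusted p = 0.061), and without November 2 (0.074), February 1 (0.13) or February 2 (0.081). With the replicate number as a block its adjusted p was 0.053.

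Models carrying an annotation identifier and models added by the authors were called in similar shares. Of 21465 tested Gb_ models 4014 rose and 4874 fell, which is 41.4%. Of 1482 tested added models 256 rose and 318 fell, which is 38.7%. The added models were lower in level, with 504 below 2 FPKM. In that class 23.8% of added models were called against 28.8% of Gb_ models. At 2 to 5 FPKM the shares were 41.8% and 35.4%, and at 5 to 20 FPKM 47.4% and 40.4%. At 20 to 100 FPKM they were 51.7% and 50.6%, and at 100 to 1000 FPKM, with 57 added models, 45.6% and 52.6%. These shares were not tested against each other.

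Neighbouring genes often changed in the same direction when they lay on the same strand. Among adjacent tested genes that were both called, 77 of 88 pairs on the same strand with a gap of 1 to 10 kb went the same way (87.5%), against 21 of 39 pairs on opposite strands (53.8%). At 10 to 50 kb the counts were 214 of 250 (85.6%) on the same strand and 67 of 103 (65%) on opposite strands. At 50 to 200 kb they were 556 of 768 (72.4%) and 281 of 497 (56.5%). At 200 kb and over they were 359 of 634 (56.6%) and 322 of 613 (52.5%).

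Very close pairs need a separate reading. Models that overlap on opposite strands went the same way in 109 of 113 pairs (96.5%), and models under 1 kb apart in 82 of 84 (97.6%). Whether counting used strand is not stated in the sources used here, so reads of overlapping models cannot be told apart. Restricting same-strand pairs at 10 to 50 kb to those whose listed lengths were more than 1.5 times apart gave 127 of 148 (85.8%). Those with lengths within 1.1 times gave 24 of 30 (80%). At wider gaps pairs of similar length shared direction more often. On opposite strands at 50 to 200 kb they did in 33 of 42 pairs (78.6%), against 167 of 321 (52%) over 1.5 times apart. On all strands at 200 kb and over the counts were 87 of 137 (63.5%) and 425 of 809 (52.5%). These length limits were chosen after seeing the data. Over the fits that left out a library, the same-strand share at 10 to 50 kb was 84.3% to 90.1%.

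The longest run of consecutive tested genes called in the same direction was a run of 9 risers on scaffold 10470 (139406 to 1311980). Of 12 models listed in that range, 9 were tested, and 8 of the 9 had no intron and listed lengths of 558 to 633 bases. Their log2 fold changes were 0.65 to 4.94, with a median of 2.05. The seventh gene of the run (598562 to 599161) stood at 0.102 and 0.0849 FPKM in November against 33.5 and 31.4 in February (4.94, SE 0.2, limma adjusted p = 0.00043). The fifth (451828 to 452424) stood at 1.23 and 0 FPKM in November against 12.6 and 12.4 in February (3.18, SE 0.37, adjusted p = 0.0023).

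The 8 intronless genes of that run were all low in November, at 0 to 1.23 FPKM, and at 1.5 to 33.5 FPKM in February. In September they were at 0 to 0.239 FPKM. These 8 genes met the rule of 1 FPKM in 2 libraries only through February, so that their rise follows in part from the rule. The length of the run and its calls therefore support nothing. The ninth gene has a long span (1053674 to 1311980) and changed least, from 7.09 and 6.34 to 10.6 and 11.6 FPKM (0.65, SE 0.19, limma adjusted p = 0.035). Leaving out any single library kept 7 or 8 of the 9 calls, and the longest unbroken run of risers anywhere was 5 genes without February 1. Genes of similar length side by side may be copies that share reads, which was not tested.

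A run of 8 risers lay on scaffold 3406 (762693 to 3089255), with a median log2 fold change of 1.36. It joined genes of 495 to 3819 bases on both strands. The largest change in it was from 6.83 and 10.4 to 81.7 and 46.2 FPKM (2.72, SE 0.32, limma adjusted p = 0.0023). The third run, with 6 risers on scaffold 4256 (70295 to 920889), had a median of 1.98 and was 1 of 4 runs of that length. Some of its genes also met the rule of 1 FPKM in 2 libraries only through February. Runs of 6 fallers lay on scaffolds 3148, 523 and 2602, with medians of −1.1, −1.03 and −0.98. Leaving out any single library kept at least 6 calls of the run on scaffold 3406 and at least 4 of that on scaffold 4256. With February 1 left out, 3 calls of the run on scaffold 3148 and 1 of that on scaffold 523 were kept, and 2 of the latter without November 1. The run on scaffold 2602 kept 3 without either September library or without November 1.

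**Figure D5:**
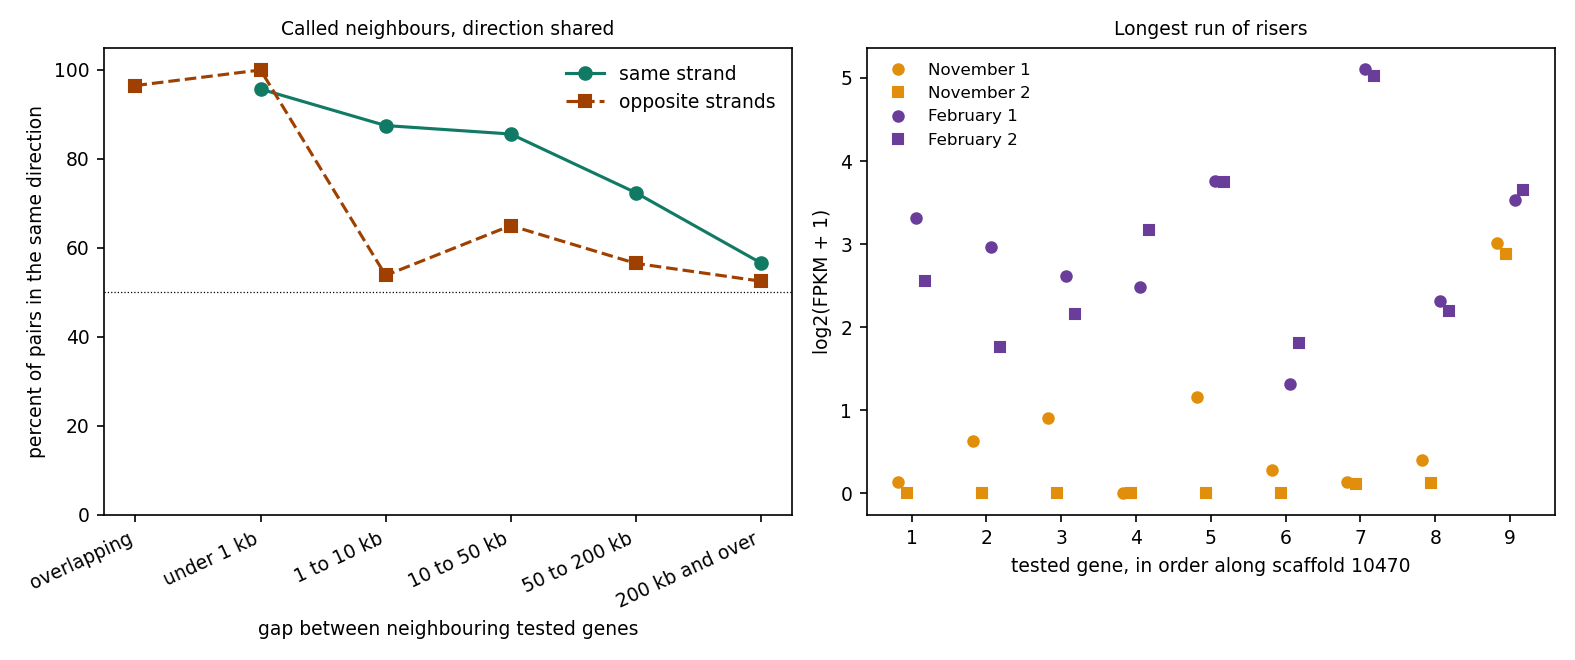
Left, percent of adjacent called gene pairs that changed in the same direction (y axis) by gap (x axis), for pairs on the same strand (green circles) and on opposite strands (brown squares), with a dotted line at 50%; points with under 20 pairs are left out. Right, log2(FPKM + 1) of the 9 risers in order along scaffold 10470 (x axis, gene order), orange for November and purple for February, where each February value lies above both November values of the same gene.

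Most genes could not be placed in long stretches. The tested genes lay on 6795 of 8272 scaffolds, 2290 scaffolds held a single tested gene and the median was 2. At least 30 tested genes were found on 2 scaffolds. On scaffold 1496, 6 of 43 tested genes rose and 12 fell, and on scaffold 1487, 13 of 36 rose and 6 fell. With a minimum of 15 genes, chosen after the counts per scaffold were seen, 85 scaffolds had 13.3% to 66.7% of their genes called, with a median of 41.2%, equal to the share over all tested genes. Falls outnumbered rises on 50 of them, rises outnumbered falls on 24 and the counts were equal on 11. Over all tested genes 22.6% fell and 18.6% rose, a balance that turned around with RLE factors. On 5 of them no gene rose, and each of the 85 held at least 1 gene that fell.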

How the data were processed

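The 6 mRNA libraries, 2 per month, were grouped by the month in their labels; the 9 small-RNA libraries of the series were not used here. The deposited table gives FPKM per gene model and library, per the file headers. Bowtie, HTSeq 0.6.1, TopHat2 2.0.12 and CASAVA 1.8 are listed, with no roles, in the submitters' processing notes. Genome build, annotation and use of strand were not given in the sources used here, so coordinates are those of the deposited table, which pairs identifiers with positions and not with names or functions.

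FPKM times listed length was a whole multiple of 1 step per library (tolerance 0.05 of a read) for 98.74% to 98.81% of values, which gave the depths. Values of 0 count as whole there, and among values above 0 the share was 97.95% to 98.07%. The 626 genes with values that were not whole were all added models. Intervals and limits cover counting error only.

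Log2(FPKM + 1) of all 6 libraries was fitted in limma 3.58.1 (R 4.3.3) with a mean-variance trend and 1 coefficient per month, leaving 3 residual degrees of freedom. Benjamini-Hochberg adjustment ran over the 22947 genes, with a threshold of 0.05. Fold changes are February over November on that scale, and the added 1 understates changes of low genes. Rose and fell mean past the threshold. The procedure was run on simulated data with few changed genes and equal spread in all months. These data differ in both, so that run says nothing about how many of the reported calls are right. Alternatives were a pseudocount of 0.1, other filters, RLE and upper quartile factors, the 4 libraries alone, a replicate block, no trend, voom on recovered reads and each library left out.

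Named genes were the largest changes past the threshold with months that did not overlap and at least 5 FPKM in the higher month (7629 genes qualified), with 2 identifiers printed in each direction. By position, the text adds the 5 most abundant genes of each month, the 3 largest changes at 100 FPKM, the longest spans and the 3 longest runs. Neighbours and genes entering the first 10 were added after their values were seen. The members and lists were chosen with earlier results of these data known.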

Additional observations from a re-analysis of the deposited data

How the results depend on the processing

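The balance of rises and falls turned around with RLE factors over all genes and in several classes. No gene was called in the opposite direction under any alternative, though fits of the same libraries make such a reversal unlikely. The count of called genes (9462) was 3995 to 9287 over the fits that left out a library, that of risers 1828 to 3994 and that of fallers 2167 to 5329, all lowest without February 1. At least 4-fold rises numbered 959 with a pseudocount of 0.1 and 939 with voom, against 554, and falls 1376 and 1257, against 655. The median log2 fold change of −0.095 was −0.014 with no filter, −0.063 with at least 5 FPKM in 2 libraries, −0.005 with RLE factors, −0.128 with upper quartile factors and −0.126 to −0.052 with a library left out. The percent called was 17.5 to 40.5 for Gb_ models and 15.8 to 39.9 for added models with a library left out. By reads, the first 10 genes held 6.12% in November and 3.93% in February, against 11.94% and 6.97% by FPKM. The counts of switched genes were 39 and 36 with 0.5 FPKM in the low month and 1 for February with 10 FPKM in the high month. The cause was not tested. Across all genes, deviations of same-numbered libraries correlated at −0.09, −0.18 and 0.1, so the rule for pairing (over 0.1 in every pair) was not met. Library 2 less library 1 shifted alike in November and February for genes of 4000 bases or more (median log2 difference −0.5 and −0.35) and of 1000 FPKM or more (0.32 and 0.31), and whether the numbers mark a shared source was not tested. With the replicate number as a block, 8215 genes were called, of which 8049 were among those reported. Each month has 2 libraries, and a fit without one assumes that the remaining library varies like those of the other months.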
